A study of Mus musculus with 8 samples.

Results

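The p53 target genes examined here were Cdkn1a, Mdm2, Ccng1, Trp53inp1, Gadd45a, Bbc3, Fas, Phlda3 and Sesn1, measured at every probe set that the array annotation assigned to one of these symbols alone. Of 10 genes listed, 9 had such a probe set, and Bax was not analysed here because no probe set carried its symbol in the annotation used. The 9 genes were covered by 18 of the 45101 probe sets on the array, and 15 of these 18, at least 1 for each gene, reached a signal of 50 on at least 2 of 8 arrays. The cells were neural stem cells (NSCs) of the mouse brain, adult by the series description and embryonic or adult by the methods, with no strain given in the labels. They were grown as neurospheres, dissociated, and cultured again as secondary neurospheres. They were kept for 7 or 3 days in rcCHIL3 or in MHM + GF. rcCHIL3 (ECF-L in the labels) is a medium conditioned by HEK293T cells, a human embryonic kidney line, that had been transfected with the mouse Chil3 gene for a secreted chitinase-like protein. MHM + GF is the control, a hormone-supplemented medium with the growth factors EGF and FGF-2, which the labels name only as MHM. The 4 groups had 2 arrays each, from independent experiments. The methods name added growth factors for the control medium and not for rcCHIL3, and a medium from mock-transfected HEK293T cells was not analysed here, so CHIL3 itself, other products of HEK293T cells and the growth factors cannot be told apart in any comparison of the media.

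The transcription factor p53 is stabilised when cells meet DNA damage, oncogene activity or other stress, and it raises the transcription of genes that stop the cell cycle, repair DNA, limit growth or start apoptosis. Its targets include its own inhibitors, above all Mdm2, so that a rise of p53 activity is followed by feedback. In NSCs p53 is known as a brake on proliferation and self-renewal. Many of its targets, among them Cdkn1a and Gadd45a, are also driven by factors other than p53, and an array measures their transcripts and not the activity of p53. The p53 gene itself was not analysed here.

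p53 binds DNA as a tetramer to a pair of degenerate decamers, and a match to this decamer in the promoter is given here for the members that have one. The RefSeq promoter windows (mouse GRCm38.p6) run from 250 bases before to 50 bases after each annotated start. At least 1 window was present for 8 of the 9 genes, and Trp53inp1 had none. The p53 decamer has the same consensus on both strands, so 1 search covers both. It was found in 5 of the 12 windows of these genes, against 2745 of 32851 windows of all genes (8.36%). The sequences are written 5′ to 3′ on the strand of the gene, with the decamers in capitals and up to 25 bases on each side.
Cdkn1a, chr17:29090881-29090962 (+): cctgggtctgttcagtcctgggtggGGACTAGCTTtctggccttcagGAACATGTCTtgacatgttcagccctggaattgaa
Mdm2, chr10:117710910-117710969 (-): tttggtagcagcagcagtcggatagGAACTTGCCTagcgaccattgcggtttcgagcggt
Ccng1, chr11:40755437-40755496 (-): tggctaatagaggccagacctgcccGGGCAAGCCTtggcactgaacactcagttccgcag
Gadd45a, chr6:67037413-67037472 (-): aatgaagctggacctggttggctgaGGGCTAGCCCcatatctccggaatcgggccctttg
Sesn1, chr10:41887241-41887300 (+): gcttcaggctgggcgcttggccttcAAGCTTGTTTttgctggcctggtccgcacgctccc

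The Cdkn1a window was the only one of the 12 with 2 decamers at most 13 bases apart, the spacing of a full p53 site. Its decamers were 12 bases apart and lay between 73 and 42 bases before the annotated start of that window. A pair of this kind was present in 24 of the 32851 windows (0.0731%). The decamer directly after the second of the pair misses the consensus only at its first base and so was not counted. The single decamer ended 31 bases before the start in Gadd45a, 164 in Sesn1, 176 in Ccng1 and 177 in Mdm2. The second Cdkn1a window and the windows of Bbc3, Fas and Phlda3 held none. The search allowed no mismatch, so decamers that miss the consensus at any base stay in lower case. Sites outside the windows were not searched. A match describes the sequence alone, and the arrays did not measure binding. The 5 genes with a decamer did not share 1 pattern over the groups: at 7 days Cdkn1a, Mdm2, Gadd45a and Ccng1 were called higher with rcCHIL3 at their brightest probe sets and Sesn1 was not, and at 3 days only Gadd45a and Ccng1 of the 5 were.

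The values are MAS5 signals, intensities on a linear scale, with each array rescaled to an average of 100. Between 30.1% and 31.5% of all probe sets reached a signal of 50 on each array, and arrays of a group correlated at r = 0.992 to 0.994. A signal depends on the probes, so signals were compared between groups at 1 probe set and never between genes. Changes are differences of log2(signal + 20), with the standard error (SE) and the p-value from 1 limma model of all 8 arrays, adjusted by the Benjamini-Hochberg method over 15679 probe sets, and a probe set was called at an adjusted p below 0.05. Markers of the cell types that a neurosphere can hold were measured beside the members. All 8 neural stem or progenitor markers reached the filter, and their summed signals were 7877 to 7891 in rcCHIL3 against 8708 to 8780 in MHM + GF after 7 days, and 7810 to 8202 in rcCHIL3 against 9277 to 9520.0 in MHM + GF after 3 days. These sums weigh bright probe sets most. Of the 8 genes, none was called higher and 3 lower with rcCHIL3 at 7 days, and 3 were called higher and 3 lower at 3 days, with median log2 changes of -0.16 and 0.04. Hes5, a Notch target of stem cells, had a log2 change of -1.75 (SE 0.12, adjusted p = 6.9e-07) at 7 days and 0.16 (SE 0.12, adjusted p = 0.28) at 3 days. Nes, which encodes nestin and is 1 of these 8 markers, averaged 13.8 ± 7.25 in rcCHIL3 against 29.9 ± 3.15 in MHM + GF after 7 days, and 25.2 ± 0.423 in rcCHIL3 against 187 ± 0.320 in MHM + GF after 3 days (SD, n = 2 each), so that it stayed under the signal of 50 in every group but the last. The summed astrocyte markers, 5 of 6 above the filter, were 4959 to 5057 in rcCHIL3 against 4311 to 4471 in MHM + GF after 7 days, and 3890 to 4037 in rcCHIL3 against 2181 to 2317 in MHM + GF after 3 days. Of the 5, 3 were called higher with rcCHIL3 on each day and 1 lower. The lower one was Aldh1l1, with a log2 change of -0.54 at 7 days and -1.24 at 3 days. Summed oligodendrocyte lineage markers, 5 of 6 above the filter, were 5196 to 5392 in rcCHIL3 against 5217 to 5318 in MHM + GF after 7 days, and 6136 to 6252 in rcCHIL3 against 4159 to 4182 in MHM + GF after 3 days. Of the 5, none was called higher and 1 lower at 7 days (Olig2, -0.96). At 3 days 3 were called higher and 1 lower. Summed neuroblast and neuron markers, 5 of 7 above the filter, were 1172 to 1290 in rcCHIL3 against 1851 to 1883 in MHM + GF after 7 days, and 1497 to 1514 in rcCHIL3 against 1370 to 1406 in MHM + GF after 3 days. Of the 5, none was called higher and 3 lower at 7 days, and 3 higher and 2 lower at 3 days. At 3 days Dcx had a log2 change of 1.35, and Map2, the brighter of the pair, -0.23. Fibroblast and mural markers, 3 of 6 above the filter and all 3 collagens below it, summed to 139 to 141 in rcCHIL3 against 477 to 529 in MHM + GF after 7 days, and to 194 to 198 in rcCHIL3 against 102 to 119 in MHM + GF after 3 days. Of the 3 above the filter, none was called higher and 2 lower at 7 days, and 2 higher and none lower at 3 days. None of 7 microglia markers and none of 6 endothelial markers reached the filter. Their part in the changes of the p53 targets was not tested, and in these bulk samples fewer cells of a type and less RNA per cell cannot be told apart.

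At 7 days most p53 targets were higher with rcCHIL3. Of the 15 probe sets, 10 (66.7%) were called higher, against 21.3% of all probe sets tested, and 1 (6.67%) was called lower, against 22.7%. The members were chosen with earlier results of these data known, so this and the later shares describe them and do not test them. Cdkn1a, Mdm2, Ccng1 and Sesn1 each count more than once among the 15. By the brightest probe set of each gene, Cdkn1a, Mdm2, Ccng1, Gadd45a, Fas and Phlda3 rose and none of the other 3 was called. The median log2 change over the 15 probe sets was 0.40, against -0.01 over all probe sets. At 3 days the picture was more mixed. There 6 of the 15 (40%) were called higher, against a background of 27.7%, and 3 (20%) lower, against 22.5%, with a median of 0.19 against 0.03 over all probe sets. Ccng1, Gadd45a, Fas and Phlda3 rose, Bbc3 fell, and Cdkn1a was not called. The methods call the 2 arrays of a group independent experiments without saying whether the cells came from separate mice, so the p-values measure the spread between these arrays, which may be technical. With 2 arrays a group an exact permutation test of a single gene cannot go below p = 0.333.

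**Figure D1:**
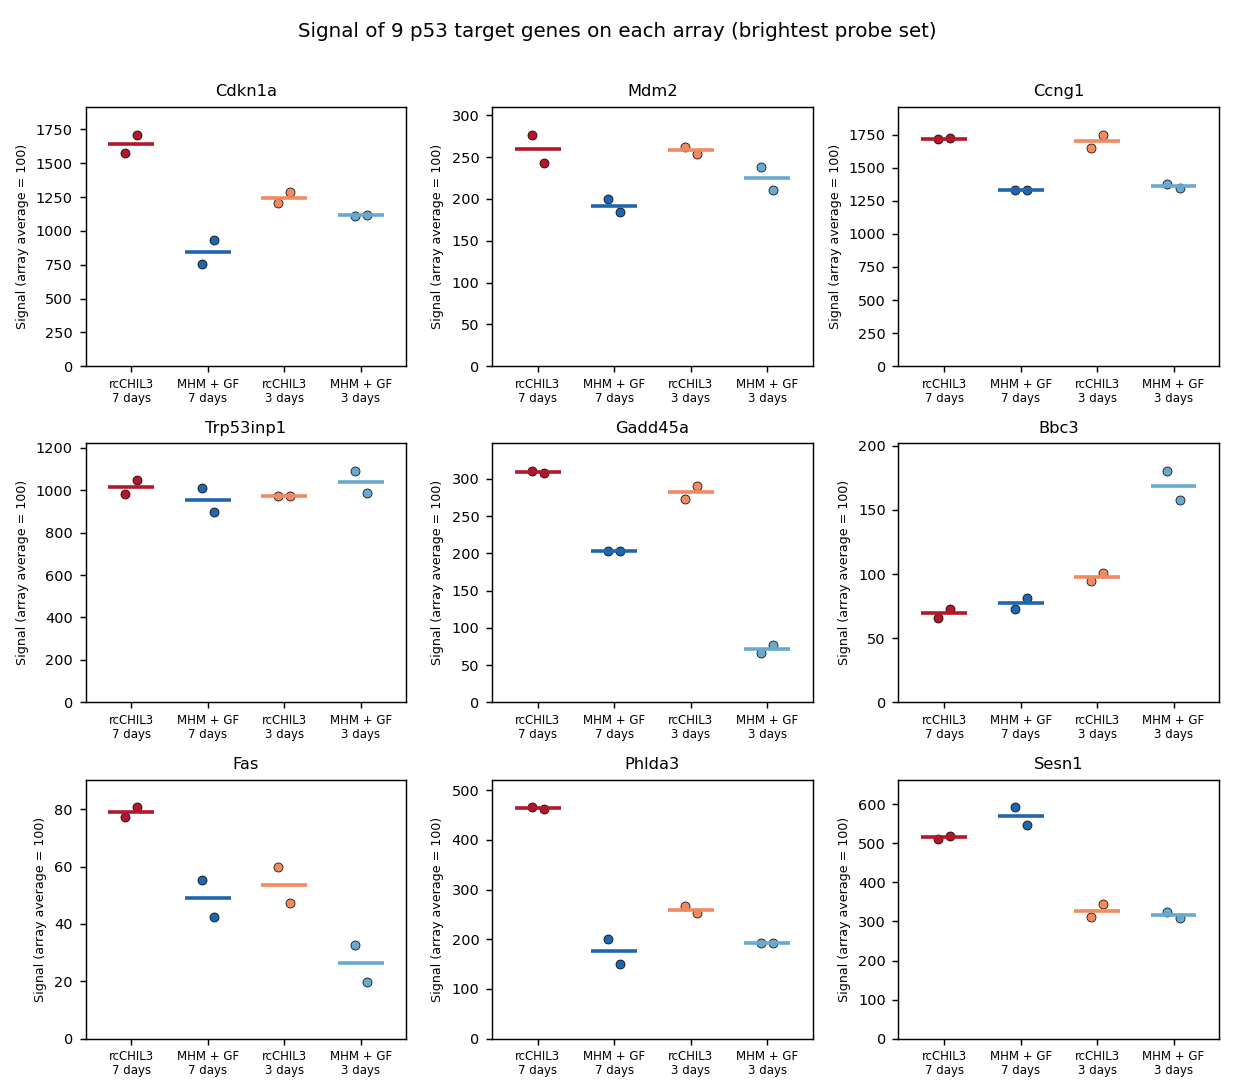
Signal of each gene at its brightest probe set on each of the 8 arrays (vertical axis, array average = 100, starting at 0 and scaled for each gene), with 1 point for each array and a bar at the mean of each group. Cdkn1a and Phlda3 stand apart in rcCHIL3 at 7 days, Gadd45a is low in MHM + GF at 3 days, and Sesn1 is higher on all 7-day than on all 3-day arrays.

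Cdkn1a encodes the cyclin-dependent kinase inhibitor p21 and is the best known arrest gene among p53 targets. By single probe sets it had the largest change of the members at 7 days, at its dimmer one, 1421679_a_at. By the brightest probe set of each gene, Phlda3 changed more. At 1421679_a_at it measured 774 and 795 in rcCHIL3 against 215 and 198 in MHM + GF after 7 days, and 535 and 643 in rcCHIL3 against 401 and 583 in MHM + GF after 3 days. The 2 media were far apart at 7 days. At 3 days they overlapped through 1 array, MHM + GF replicate 2, whose signal lay between those of the rcCHIL3 arrays. The ratio of mean signals was 3.79 at 7 days and 1.20 at 3 days, and the log2 change was 1.83 (SE 0.14, adjusted p = 1.8e-06) at 7 days and 0.27 (SE 0.14, adjusted p = 0.13) at 3 days. Without MHM + GF replicate 2 at 3 days the change at 3 days was 0.53 and was called (adjusted p = 0.0032). At the brighter probe set, 1424638_at, Cdkn1a measured 1576 and 1709 in rcCHIL3 against 753 and 933 in MHM + GF after 7 days, and 1205 and 1288 in rcCHIL3 against 1113 and 1119.5 in MHM + GF after 3 days. The media did not overlap on either day there, and the direction was the same, with a log2 change of 0.95 (SE 0.09, adjusted p = 1.0e-05) at 7 days and 0.16 (SE 0.09, adjusted p = 0.17, 95% interval -0.04 to 0.35) at 3 days. The size differed by probe set, 3.79 and 1.95 as ratios of mean signals at 7 days. In order of level at the brighter probe set, rcCHIL3 at 7 days was followed by rcCHIL3 at 3 days, MHM + GF at 3 days and MHM + GF at 7 days, and rcCHIL3 and MHM + GF at 3 days did not differ past the threshold.

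**Figure D2:**
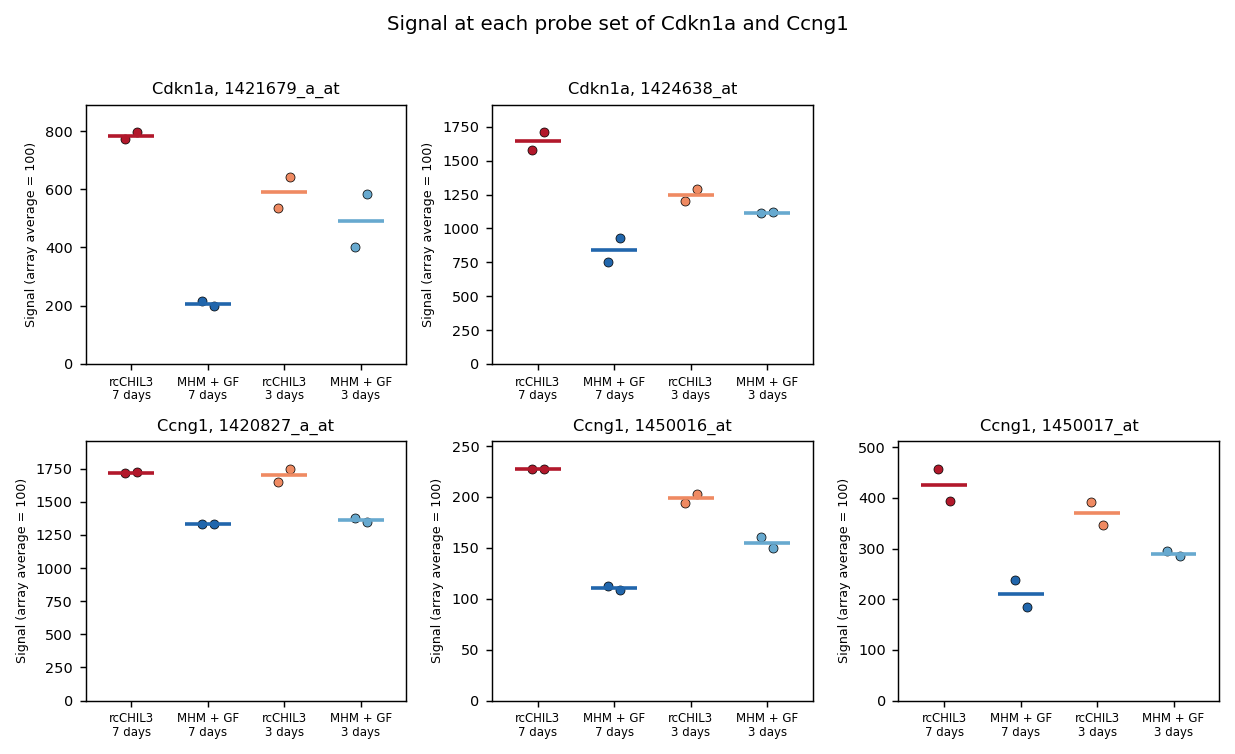
Signal (vertical axis, array average = 100, starting at 0) at both kept probe sets of Cdkn1a and the 3 of Ccng1 on each array, with points for arrays and bars for group means. At every panel rcCHIL3 at 7 days lies above MHM + GF at 7 days, while the ratio between them runs between 1.29 at 1420827_a_at and 3.79 at 1421679_a_at.

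Gadd45a, a stress gene whose product binds cell cycle and DNA repair proteins, was also higher with rcCHIL3 but with the other time course. It measured 310.4 and 308 in rcCHIL3 against 203 and 203 in MHM + GF after 7 days, and 273 and 290.5 in rcCHIL3 against 65.8 and 77.6 in MHM + GF after 3 days. No array of one medium reached the range of the other on either day, and the control at 3 days was the lowest group by far. The log2 change was 0.56 (SE 0.08, adjusted p = 0.00026) at 7 days and 1.72 (SE 0.08, adjusted p = 1.8e-08) at 3 days, or 1.52-fold and 3.93-fold as ratios of mean signals. Gadd45a was the member with the largest change at 3 days, and its calls held under every alternative run. The levels followed the order rcCHIL3 at 7 days, rcCHIL3 at 3 days, MHM + GF at 7 days and MHM + GF at 3 days, and the first pair did not differ past the threshold.

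Mdm2 encodes the ubiquitin ligase that inhibits p53 and marks it for degradation. At its brighter probe set, 1423605_a_at, it measured 277 and 243 in rcCHIL3 against 199.7 and 184 in MHM + GF after 7 days, and 262 and 254 in rcCHIL3 against 238 and 211 in MHM + GF after 3 days. The arrays of the 2 media did not overlap on either day, but the gap was small. The log2 change was 0.40 (SE 0.09, adjusted p = 0.0034) at 7 days and 0.19 (SE 0.09, adjusted p = 0.094, 95% interval -0.0036 to 0.38) at 3 days, and with the replicate number as a block Mdm2 was called at 3 days too (adjusted p = 0.048). At 1427718_a_at, with signals between 38.2 and 61.6, the log2 change was 0.34 (SE 0.12, adjusted p = 0.040) at 7 days and -0.03 (SE 0.12, adjusted p = 0.86) at 3 days. This dim probe set lost its call at 7 days without MHM + GF replicate 1 (adjusted p = 0.083) or 2 (0.14) at 7 days, rcCHIL3 replicate 1 at 7 days (0.24), or MHM + GF replicate 1 (0.0504) or 2 (0.0505) at 3 days. The third Mdm2 probe set, 1457929_at, stayed between 1.69 and 5.16 and was not called.

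Ccng1 encodes cyclin G1, which recruits a phosphatase to Mdm2 and belongs to the feedback on p53. At its brightest probe set, 1420827_a_at, it measured 1714 and 1722 in rcCHIL3 against 1333 and 1330.1 in MHM + GF after 7 days, and 1651 and 1747 in rcCHIL3 against 1377 and 1351 in MHM + GF after 3 days. The 4 rcCHIL3 arrays were above the 4 MHM + GF arrays, with a log2 change of 0.36 (SE 0.06, adjusted p = 0.00037) at 7 days and 0.31 (SE 0.06, adjusted p = 0.00068) at 3 days. At 1450016_at the signals were 227 and 227 in rcCHIL3 against 113 and 109 in MHM + GF after 7 days, and 194 and 203 in rcCHIL3 against 160.3 and 150.1 in MHM + GF after 3 days. At this probe set the gap between the media was wider at 7 days than at 3 days. The log2 change was 0.92 (SE 0.08, adjusted p = 3.8e-06) at 7 days and 0.32 (SE 0.08, adjusted p = 0.0045) at 3 days. The third probe set, 1450017_at, gave 0.95 (SE 0.11, adjusted p = 5.4e-05) at 7 days and 0.33 (SE 0.11, adjusted p = 0.030) at 3 days. That last call was lost without MHM + GF replicate 1 (adjusted p = 0.075) or 2 (0.12) or rcCHIL3 replicate 1 (0.20) at 3 days, and on the signals as deposited none of the 3 probe sets of Ccng1 was called at 3 days.

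Phlda3 has a product that competes with the kinase AKT for membrane lipids and so restrains survival signalling. By brightest probe sets it had the largest change of the members at 7 days, above the 0.95 of Cdkn1a. It measured 465 and 462 in rcCHIL3 against 200.2 and 150.3 in MHM + GF after 7 days, and 267 and 252 in rcCHIL3 against 192 and 193 in MHM + GF after 3 days. The rcCHIL3 arrays were higher on both days without overlap, and those at 7 days were the highest of all. The log2 change was 1.32 (SE 0.10, adjusted p = 2.5e-06) at 7 days and 0.40 (SE 0.10, adjusted p = 0.0075) at 3 days, or 2.65-fold and 1.35-fold as ratios of mean signals. The call at 3 days was lost without rcCHIL3 replicate 1 at 3 days (adjusted p = 0.058) and on the signals as deposited.

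Sesn1 encodes sestrin 1, which limits oxidative damage and the growth kinase mTORC1, and it did not follow the other arrest and stress genes. At its brightest probe set, 1438931_s_at, it measured 512 and 519 in rcCHIL3 against 592 and 546 in MHM + GF after 7 days, and 312 and 344 in rcCHIL3 against 325 and 310.2 in MHM + GF after 3 days. The media overlapped at 3 days, and at 7 days the rcCHIL3 arrays were slightly lower. The log2 change was -0.14 (SE 0.07, adjusted p = 0.14, 95% interval -0.29 to 0.02) at 7 days and 0.04 (SE 0.07, adjusted p = 0.65, 95% interval -0.12 to 0.20) at 3 days. At 1433711_s_at it was -0.22 (SE 0.08, adjusted p = 0.042) at 7 days and -0.24 (SE 0.08, adjusted p = 0.025) at 3 days, and at 1454699_at -0.17 (SE 0.10, adjusted p = 0.17) and -0.30 (SE 0.10, adjusted p = 0.021). The suffix s marks probes that can match transcripts of more than 1 gene. The call of 1433711_s_at at 7 days was the only one in the lower direction there, and it was lost without MHM + GF replicate 1 (adjusted p = 0.085) or 2 (0.14) at 7 days, rcCHIL3 replicate 1 at 7 days (0.29), or rcCHIL3 replicate 1 (0.057) or 2 (0.057) at 3 days. At 3 days 1433711_s_at was lost without rcCHIL3 replicate 1 (0.055) or 2 (0.14) or MHM + GF replicate 1 (0.13), and 1454699_at without rcCHIL3 replicate 2 (0.16) or MHM + GF replicate 1 (0.14). The dim probe set 1444376_at, between 9.73 and 22.6, was not called.

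The apoptosis genes among the members went in different directions. Bbc3, which encodes the BCL2-binding protein PUMA, measured 66.2 and 72.8 in rcCHIL3 against 73.1 and 81.5 in MHM + GF after 7 days, and 94.3 and 101 in rcCHIL3 against 180.2 and 158 in MHM + GF after 3 days. It was lower with rcCHIL3 at 3 days, where the control arrays were the highest of all 8. The log2 change was -0.12 (SE 0.10, adjusted p = 0.34, 95% interval -0.33 to 0.09) at 7 days and -0.68 (SE 0.10, adjusted p = 0.00013) at 3 days. Fas, the death receptor on the cell surface, measured 77.5 and 80.7 in rcCHIL3 against 55.5 and 42.3 in MHM + GF after 7 days, and 59.7 and 47.4 in rcCHIL3 against 32.8 and 19.7 in MHM + GF after 3 days. Its signals were low throughout, and the rcCHIL3 arrays were higher on each day. The log2 change of Fas was 0.53 (SE 0.15, adjusted p = 0.013) at 7 days and 0.68 (SE 0.15, adjusted p = 0.0025) at 3 days. The call of Fas at 7 days was lost without MHM + GF replicate 2 (adjusted p = 0.10) or rcCHIL3 replicate 2 (0.064) at 7 days. The log2 change of Fas at 3 days was 0.44 with an offset of 50 and 1.07 with a floor of 10 in place of the offset. Trp53inp1, a nuclear protein that promotes p53-dependent cell death and autophagy, measured 982 and 1048 in rcCHIL3 against 1009 and 896 in MHM + GF after 7 days, and 970.3 and 975 in rcCHIL3 against 1089 and 989 in MHM + GF after 3 days. Its groups differed little, with a log2 change of 0.09 (95% interval -0.07 to 0.25, adjusted p = 0.34) at 7 days and -0.09 (95% interval -0.25 to 0.07, adjusted p = 0.32) at 3 days. Its other probe set, 1416927_at, lay between 2.92 and 11.9 and was not called.

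**Figure D3:**
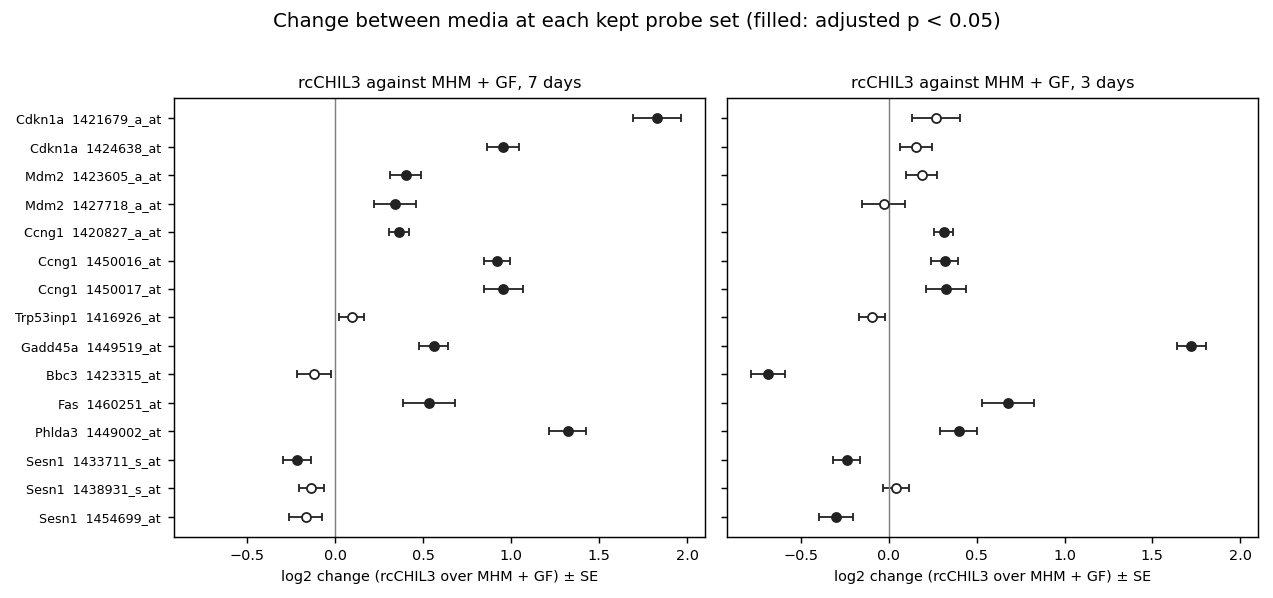
Log2 change of rcCHIL3 over MHM + GF (horizontal axis, both panels on 1 scale) at each of the 15 kept probe sets at 7 days (left) and 3 days (right), with bars of 1 SE and filled points where the adjusted p is below 0.05. At 7 days 10 filled points lie to the right of 0 and 1 to the left, and at 3 days 6 lie to the right and 3 to the left.

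The difference between the media was then compared between the days, as the log2 change at 7 days minus that at 3 days. It was called positive at 6 of the 15 probe sets (40%), against 18.7% of all probe sets, and negative at 1 (6.67%), against 22.7%. The 6 were both Cdkn1a probe sets (1.56, SE 0.19, adjusted p = 8.3e-05 at 1421679_a_at, and 0.80, SE 0.13, adjusted p = 0.00046 at 1424638_at), Phlda3 (0.92, SE 0.15, adjusted p = 0.00046), 1450016_at and 1450017_at of Ccng1 (0.60, SE 0.11, adjusted p = 0.0011, and 0.63, SE 0.16, adjusted p = 0.0082) and Bbc3 (0.56, SE 0.14, adjusted p = 0.0068). For Cdkn1a, Phlda3 and Ccng1 the excess with rcCHIL3 was thus larger at 7 days, and for Bbc3 the shortfall seen at 3 days was smaller. Gadd45a was the one in the negative direction (-1.16, SE 0.12, adjusted p = 1.5e-05), its excess being larger at 3 days. The brightest Ccng1 probe set did not show the difference (0.05, 95% interval -0.12 to 0.22, adjusted p = 0.64), so the 3 probe sets of Ccng1 disagreed. For Mdm2 (0.21, 95% interval -0.06 to 0.48, adjusted p = 0.19), Fas (-0.15, 95% interval -0.61 to 0.31, adjusted p = 0.60) and Trp53inp1 (0.18, 95% interval -0.05 to 0.41, adjusted p = 0.18) no difference between the days was called. The dim Mdm2 probe set 1427718_a_at gained a call without rcCHIL3 replicate 1 at 3 days (0.52, adjusted p = 0.042).

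Change with time was examined within each medium, and these comparisons share their arrays with those of the media. In rcCHIL3, 7 of the 15 probe sets (46.7%) were called higher at 7 than at 3 days, against 18.0% of all probe sets, and 1 (6.67%) lower, against 17.9%. In MHM + GF, 5 (33.3%) were called higher, against 31.1%, and 6 (40%) lower, against 26.0%. Cdkn1a moved in opposite directions, with a log2 change of 7 over 3 days of 0.39 (SE 0.09, adjusted p = 0.0056) in rcCHIL3 and -0.40 (SE 0.09, adjusted p = 0.0025) in MHM + GF at 1424638_at, and of 0.41 (SE 0.14, adjusted p = 0.038) and -1.15 (SE 0.14, adjusted p = 2.8e-05) at 1421679_a_at. Phlda3 rose in rcCHIL3 (0.79, SE 0.10, adjusted p = 0.00014) and was not called in MHM + GF (-0.13, SE 0.10, adjusted p = 0.30). In MHM + GF the change of Phlda3 was -0.32 and called without replicate 1 at 7 days (adjusted p = 0.0088), and 0.05 without replicate 2 at 7 days (adjusted p = 0.62). Gadd45a was not called in rcCHIL3 (0.13, 95% interval -0.06 to 0.31, adjusted p = 0.26) and rose in MHM + GF (1.29, SE 0.08, adjusted p = 1.8e-07). The test of the difference between the media over time is the same test as that of the difference between the days above. The rise of Cdkn1a in rcCHIL3 was lost at 1421679_a_at without rcCHIL3 replicate 1 at 3 days (adjusted p = 0.26), replicate 1 at 7 days (0.10) or replicate 2 at 7 days (0.14), and at 1424638_at without rcCHIL3 replicate 1 at 3 days (0.056). At 1421679_a_at this rise was also lost with median centring (adjusted p = 0.054), without the filter (0.14) and without a trend (0.064). It was lost by the methods' t-test too (unadjusted p = 0.089). The fall of Cdkn1a in MHM + GF at 1424638_at was -0.25 without MHM + GF replicate 1 at 7 days.

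**Figure D4:**
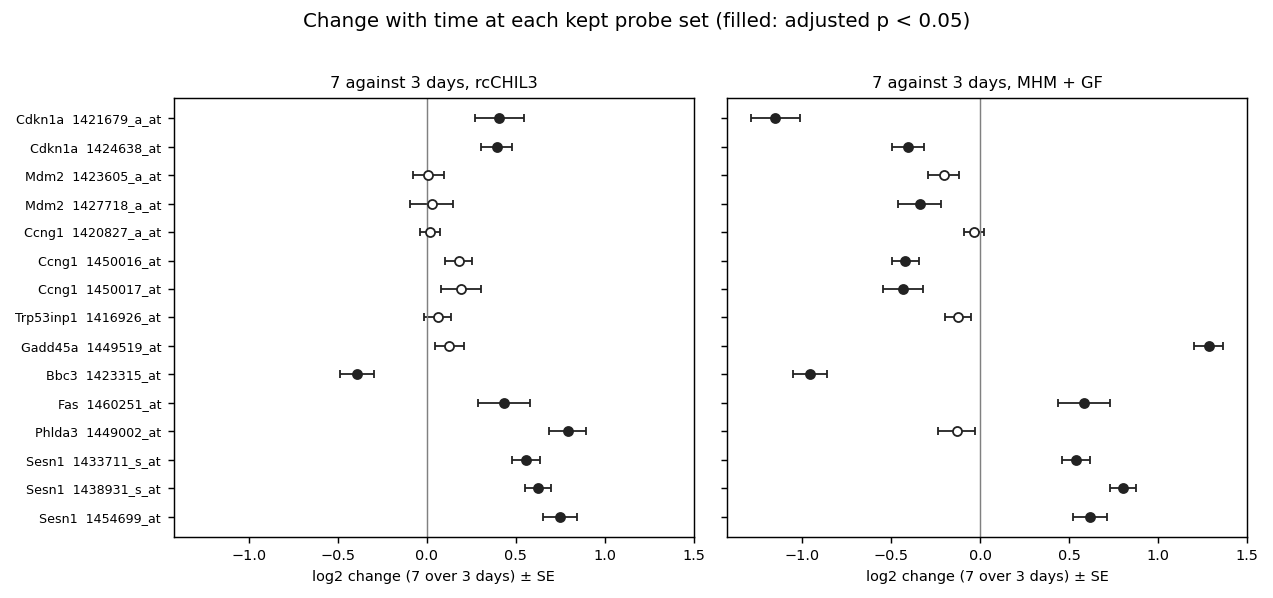
Log2 change of 7 over 3 days (horizontal axis, both panels on 1 scale) at each of the 15 kept probe sets in rcCHIL3 (left) and MHM + GF (right), with bars of 1 SE and filled points where the adjusted p is below 0.05. Sesn1 and Fas lie to the right of 0 and Bbc3 to the left in both panels, while Cdkn1a lies to the right in rcCHIL3 and to the left in MHM + GF.

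Sesn1, Fas and Bbc3 changed with time in the same direction in both media. Sesn1 rose at all 3 kept probe sets, by a log2 change of 0.62 (SE 0.07, adjusted p = 5.6e-05) in rcCHIL3 and 0.80 (SE 0.07, adjusted p = 2.8e-06) in MHM + GF at the brightest, and the arrays of the 2 days did not overlap. Fas rose by 0.43 (SE 0.15, adjusted p = 0.039) in rcCHIL3 and 0.58 (SE 0.15, adjusted p = 0.0055) in MHM + GF. Bbc3 fell, with a change of -0.39 (SE 0.10, adjusted p = 0.0086) in rcCHIL3 and -0.96 (SE 0.10, adjusted p = 7.8e-06) in MHM + GF. In rcCHIL3 the call of Fas was lost without replicate 2 at 3 days (adjusted p = 0.24), replicate 1 at 7 days (0.0997) or replicate 2 at 7 days (0.14), and that of Bbc3 without replicate 2 at 3 days (0.068) or replicate 1 at 7 days (0.059). In MHM + GF that of Fas was lost without replicate 2 at 3 days (log2 change 0.38, adjusted p = 0.064). Ccng1 fell in MHM + GF at 1450016_at (-0.42, adjusted p = 0.00065) and 1450017_at (-0.43, adjusted p = 0.0062) and not at 1420827_a_at (-0.03, adjusted p = 0.62), and the call of 1450017_at was lost without MHM + GF replicate 2 at 7 days (log2 change -0.26, adjusted p = 0.060). At the brighter Mdm2 probe set, 1423605_a_at, the change in MHM + GF was -0.21 (adjusted p = 0.063). It was called with the replicate number as a block (adjusted p = 0.030), with quantile normalization (0.038), with median centring (0.026) and without MHM + GF replicate 2 at 3 days (-0.29, adjusted p = 0.040). Mdm2 fell in MHM + GF at the dim 1427718_a_at (-0.34, adjusted p = 0.032), which was lost without any 1 of the 4 MHM + GF arrays (adjusted p = 0.13, 0.067, 0.067 and 0.11 without replicates 1 and 2 at 3 days and 1 and 2 at 7 days). Neither Mdm2 nor Ccng1 was called with time in rcCHIL3, and Trp53inp1 was called in neither medium.

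The 9 genes were set beside other genes of the p53 pathway at the brightest probe set of each. Of all probe sets tested, 21.3% were called higher and 22.7% lower with rcCHIL3 at 7 days, and 27.7% and 22.5% at 3 days, and the counts of each list stand beside these shares. Of 9 other measured targets in arrest and feedback, 2 (22.2%) rose and none fell at 7 days, and 2 (22.2%) rose and 6 (66.7%) fell at 3 days. The shares that rose were near those of all probe sets. The share that fell was below that of all probe sets at 7 days and above it at 3 days. There the median log2 change was -0.45, the value of Psrc1. Whether the falls in this list go with those of the cell cycle genes given below was not tested. Psrc1, a microtubule-associated p53 target, averaged 442 ± 26.6 in rcCHIL3 against 256 ± 18.8 in MHM + GF after 7 days, and 478 ± 3.36 in rcCHIL3 against 659.8 ± 8.52 in MHM + GF after 3 days (SD, n = 2 each). The kinase gene Plk2 changed in the same way, by 0.28 (SE 0.10, adjusted p = 0.039) at 7 days and -0.53 (SE 0.10, adjusted p = 0.00094) at 3 days. Of 11 other genes listed here as targets in apoptosis, 7 (63.6%) rose and 3 (27.3%) fell at 7 days. At 3 days 5 (45.5%) rose and 2 (18.2%) fell. This list is broad and counts Trp53inp2 and Bcl2l11, and the dependence of its genes on p53 was not measured. Ddit4, an inhibitor of mTORC1 that also responds to low oxygen, rose by 1.02 (SE 0.06, adjusted p = 4.8e-07) at 7 days and fell at 3 days (-1.12, SE 0.06, adjusted p = 7.8e-08). Perp, a membrane protein of desmosomes, fell on both days (-1.46 at 7 days and -0.67 at 3 days, adjusted p = 8.8e-07 and 0.00018), and Trp53inp2, an autophagy gene, rose on both (0.86 and 0.64, adjusted p = 3.1e-06 and 1.5e-05). Of 18 targets in repair and metabolism, 7 (38.9%) rose and 3 (16.7%) fell at 7 days and 8 (44.4%) rose and 6 (33.3%) fell at 3 days. Among these the reductase gene Dcxr (1.46 and 0.48, adjusted p = 1.5e-07 and 0.0004) and the epoxide hydrolase gene Ephx1 (1.13 and 0.71, adjusted p = 1.3e-07 and 2.0e-06) rose on both days. Sesn3, a relative of Sesn1, fell on both (-0.71 and -0.75, adjusted p = 2.1e-05 and 5.9e-06).

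Of 16 measured regulators of p53, 3 (18.8%) were called higher and 5 (31.2%) lower at 7 days, not far from the shares of all probe sets (21.3% and 22.7%), and 3 (18.8%) higher and 6 (37.5%) lower at 3 days, against 27.7% and 22.5%. Chek1, the checkpoint kinase gene, averaged 38.0 ± 4.46 in rcCHIL3 against 67.8 ± 5.56 in MHM + GF after 7 days, and 43.4 ± 4.15 in rcCHIL3 against 112 ± 0.161 in MHM + GF after 3 days (SD, n = 2 each). Hipk2, a kinase that activates p53 for apoptosis, fell at 7 days (-0.57, SE 0.07, adjusted p = 5.7e-05) and rose at 3 days (0.25, SE 0.07, adjusted p = 0.0084). Trp53bp2, a p53-binding protein that favours apoptosis, rose on both days (0.48 and 1.30, adjusted p = 0.00077 and 2.0e-07). Another list holds genes of the BCL2 family, the caspases and Fas signalling, through which PUMA and Fas act. It mixes genes for and against cell death, so its counts have no direction for apoptosis. Of its 10 measured genes, 1 (10%) rose and 3 (30%) fell at 7 days and 5 (50%) rose and none fell at 3 days. Bcl2l11, a BH3-only relative of PUMA, is also counted among the apoptosis targets and rose on both days (0.51 and 1.36, adjusted p = 0.0012 and 3.6e-07), in the direction opposite to Bbc3 at 3 days. The survival gene Bcl2 fell at 7 days (-0.80, SE 0.12, adjusted p = 0.00041) and was not called at 3 days (-0.29, SE 0.12, adjusted p = 0.073). Mcl1, also a survival gene, fell at 7 days (-0.40, adjusted p = 0.00085) and rose at 3 days (0.22, adjusted p = 0.019).

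Cell cycle genes that are lowered when p21 accumulates moved almost all in one direction. Of 16 measured, none rose and 15 (93.8%) fell with rcCHIL3 at 7 days, and none rose and 16 (100%) fell at 3 days, against 22.7% and 22.5% of all probe sets called lower, with median log2 changes of -0.70 and -2.40. Mki67, the proliferation marker, averaged 21.7 ± 5.71 in rcCHIL3 against 127 ± 2.94 in MHM + GF after 7 days, and 87.3 ± 7.23 in rcCHIL3 against 751 ± 19.1 in MHM + GF after 3 days (SD, n = 2 each). Over time the same genes fell in each medium, 15 of 16 in rcCHIL3 (median -0.61) and 16 of 16 in MHM + GF (median -2.14), against 17.9% and 26.0% of all probe sets called lower. Cdkn1a itself was not called between the media at 3 days and fell over time in MHM + GF (-0.40 at 1424638_at). The change at 7 days minus that at 3 days was called positive for 15 of the 16 (93.8%), against 18.7% of all probe sets, with a median of 1.51. Any part of p21 in these changes was not tested.

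**Figure D5:**
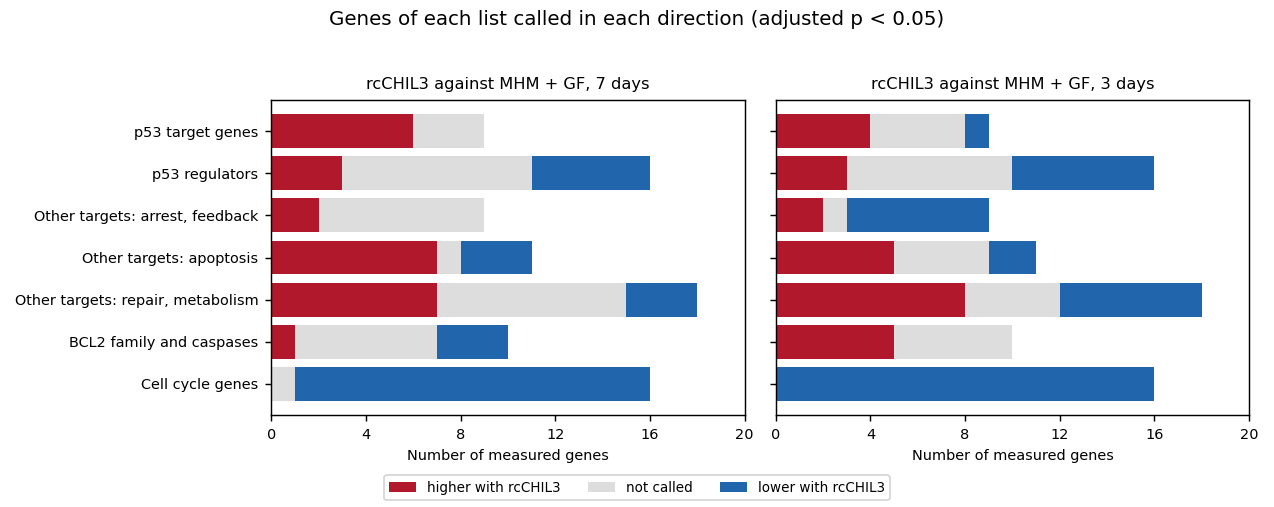
Number of measured genes of each list (horizontal axis) called higher (red) or lower (blue) with rcCHIL3 than with MHM + GF, or not called (grey), at 7 days (left) and 3 days (right). The p53 target genes have 6 higher and none lower at 7 days and 4 higher and 1 lower at 3 days, and the cell cycle genes have 15 and 16 of 16 lower.

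The pattern of the members over the 8 arrays was described by Pearson's r of log2 values at the brightest probe sets. The 8 arrays form 4 groups, so these values mostly reflect the group means, less so for Trp53inp1, whose groups differed little. Each pair among Cdkn1a, Mdm2, Ccng1 and Phlda3 had r between 0.76 and 0.85, and Gadd45a and Fas had 0.87. These did not form separate sets, since r was also 0.78 between Phlda3 and Fas and 0.73 between Gadd45a and Ccng1. Bbc3 ran opposite to Gadd45a (-0.89), Fas (-0.85) and Sesn1 (-0.79). Trp53inp1 was not close to any member, its r lying between -0.37 and 0.39. Among 5952 probe sets of bright genes, those closest to Cdkn1a were Cox6b2 (0.985), Atp5j2 (0.980) and Cox8a (0.980). Closest to Gadd45a were Aebp1 (0.998), Ccdc74a (0.997) and Mbp (0.996), and closest to Phlda3 were Grsf1 (0.992), Copb2 (0.988) and Ctsb (0.986). Klf9 and Abhd11 were near Ccng1 (0.989 and 0.991), Banf1 near Bbc3 (0.993), Glo1 near Sesn1 (0.991), Sik3 near Fas (0.978), Txndc12 near Trp53inp1 (0.976) and Mtch2 near Mdm2 (0.972). Such closest genes are the highest of many values over 8 arrays, and no reference for a maximum of this kind was made.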

How the data were processed

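Total RNA from secondary neurospheres was hybridized to 8 Affymetrix mouse arrays. The deposited values are linear signal intensities, which the authors obtained with the MAS5 algorithm (Affymetrix Expression Console 1.1 per the labels). Their averages lay between 267.3 and 316.6, so each array was brought to an average of 100. Probe sets with a signal of 50 or more on at least 2 of 8 arrays were tested (15679 of 45101), and 64 array controls were left out. One model of 4 group means was fitted to log2(signal + 20) in R 4.3.3 with limma 3.58.1, using eBayes with trend, which leaves 4 residual degrees of freedom. Tests were two-sided, with Benjamini-Hochberg adjustment. Values of probe sets below the filter come from a fit to the whole array. The script was tested on simulated data. In the annotation 34958 probe sets have 1 symbol, 932 several and 9211 none. All members are named. From each other list up to 3 called genes with the largest change at 7 days are named, and for likeness the genes of highest r among probe sets with a group mean of at least 200. The members and lists were chosen with earlier results of these data known. The labels number the arrays, but arrays of the same number did not deviate together (r from -0.011 to 0.102). Alternatives were the scaling, offset, filter, trend, replicate block, the methods' t-test and leaving out each array. The number of arrays limits the precision. Python 3.11.15 was used for tables (pandas 2.3.3, numpy 2.4.6), and matplotlib 3.10.9 for plots.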

Additional observations from a re-analysis of the deposited data

Results flagged for a closer look

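At 7 of the 15 probe sets the difference between rcCHIL3 and MHM + GF was itself different between 7 and 3 days, by the limma test of the log2 change at 7 days minus that at 3 days. It was positive for Cdkn1a (1.56 at 1421679_a_at and 0.80 at 1424638_at), Phlda3 (0.92), Ccng1 (0.60 at 1450016_at and 0.63 at 1450017_at) and Bbc3 (0.56). It was negative for Gadd45a (-1.16). These calls held under each alternative run for them, leaving out any 1 of the 8 arrays included. The highest adjusted p among the alternatives was 0.042, for Ccng1 at 1450017_at. The third Ccng1 probe set, 1420827_a_at, gave 0.05 and was not called.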

How the results depend on the processing

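Of 1460 values for single probe sets under the alternatives, 1332 kept their direction and their side of the threshold, 102 lost the call, 9 gained it (6 of these Mdm2) and 17 changed sign, none of these 17 a called value. The number of member probe sets called higher (and lower) was 10 (1) with rcCHIL3 at 7 days, 6 (3) at 3 days, 7 (1) over time in rcCHIL3, 5 (6) over time in MHM + GF and 6 (1) for the difference between the days. With the replicate block it was 10 (1), 7 (3), 7 (1), 5 (7) and 6 (1). Leaving out each array in turn gave 8 to 10 (0 to 1), 4 to 6 (1 to 3), 5 to 7 (0 to 1), 4 to 5 (4 to 6) and 6 to 7 (1 to 1). The signals as deposited gave 0 lower at 7 days, 2 higher at 3 days and 0 lower over time in rcCHIL3. Without the filter, 0 were lower at 7 days and 1 at 3 days, and without a trend 0 were lower at 7 days. The methods' t-test, which estimates the spread of each probe set from 2 arrays a group, called 2 (0) at 7 days, 1 (0) at 3 days, 0 (0) over time in rcCHIL3 and 3 (0) over time in MHM + GF after Benjamini-Hochberg, and 7 (0), 4 (2), 6 (1) and 4 (4) unadjusted. It was not run for the difference between the days. Over all probe sets it called 37, 2434, 0 and 2376 after Benjamini-Hochberg and 5144, 6518, 4857 and 6583 unadjusted in these 4 comparisons, against 6899, 7872, 5617 and 8956 by limma.

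The filter and offset were left unchanged for the larger signals as deposited, so 23340 probe sets were tested there, against 15679 after rescaling. The share of calls in the higher direction was then 63.8%, against 48.5%, at 7 days and 42.6%, against 55.1%, at 3 days. It was 68.9%, against 50.2%, over time in rcCHIL3 and 67.2%, against 45.3%, for the difference between the days. The median of all probe sets tested was shifted by 0.10 over time in rcCHIL3 and by 0.15 for the difference. The scale was not tested apart from the larger number of probe sets and the smaller relative offset. Values that changed sign belonged to changes that were not called. Sesn1 at 1438931_s_at gave -0.030 at 3 days on the deposited scale and -0.026 with quantile normalization, Mdm2 at 1423605_a_at -0.0054 over time in rcCHIL3 with median centring, and Ccng1 at 1420827_a_at 0.010 over time in MHM + GF with quantile normalization. Leaving out each array in turn gave -0.18 to 0.12 for Mdm2 at 1427718_a_at and -0.023 to 0.11 for Sesn1 at 1438931_s_at at 3 days. Over time in rcCHIL3 it gave -0.024 to 0.057 for Ccng1 at 1420827_a_at, -0.079 to 0.093 for Mdm2 at 1423605_a_at and -0.12 to 0.18 for Mdm2 at 1427718_a_at, and in MHM + GF -0.32 (called) to 0.054 for Phlda3. For the difference between the days it gave -0.068 to 0.11 for Sesn1 at 1433711_s_at and -0.35 to 0.056 for Fas. The cause of these changes was not tested. Signals near the filter limit the values of Fas, Bbc3 and Mdm2 at 1427718_a_at.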
